A study of Mus musculus with 8 samples.

Results

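Transcripts of 10 microtubule-associated proteins were followed in inguinal fat, a subcutaneous white depot, of 6-week-old mice with and without the histone demethylase Lsd1 (gene Kdm1a) in adipocytes. The genes were Mapt, Map1a, Map1b, Map1s, Map2, Map4, Map6, Map7, Stmn1 and Stmn2, taken by symbol from the 23360 genes of the deposited files, and all 10 were measured. For each symbol the RefSeq row with the highest total was used. The list was chosen by function with the scaled reads of both genotypes already compared, and those values count as used in the choice. The differences of these 10 genes between genotypes are therefore given as a description, with standard errors. Whether the fit over all genes called them is stated as part of that description and is no independent test.

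The controls were 4 libraries from mice carrying floxed Lsd1 alleles, and the knockouts were 4 libraries from floxed mice that also carried Adipoq-Cre, a transgene driven by the adiponectin promoter and active in adipocytes. Both groups were 6 weeks old, the floxed allele was common to both, and Cre without floxed Lsd1 was not among the groups, so the transgene itself and the loss of Lsd1 cannot be told apart. The labels do not say that each library came from a separate mouse, so the p-values below measure the spread between these libraries, which may be technical. The other cells of the pad, among them vessels, nerves, immune cells and progenitors, keep Lsd1, and in whole tissue fewer cells of a type and less RNA per cell cannot be told apart.

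Microtubules are hollow polymers of alpha and beta tubulin that grow and shrink at their ends and carry organelles and vesicles by motor proteins. Structural microtubule-associated proteins bind along the polymer and stabilise or bundle it, whereas stathmins bind free tubulin dimers and favour shrinkage. Tau, MAP1A, MAP1B, MAP2, MAP6 and stathmin-2 are best known from axons and dendrites of neurons, and MAP4, MAP1S, MAP7 and stathmin-1 from many dividing and non-dividing cells. In adipocytes microtubules are known for the transport of vesicles with the insulin-responsive glucose transporter and for the positioning of organelles around the lipid droplet.

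Values are scaled reads, the read counts of each library multiplied by 1 factor as the authors deposited them. Libraries held 25671835 to 32442724 recovered reads. Kdm1a was at 699, 685, 799 and 735 scaled reads in control replicates 1 to 4 and at 566, 578, 547 and 581 in knockout replicates 1 to 4, lower in every knockout than in any control. Adipocyte markers summed to 307947 to 406965 in controls and 254957 to 285291 in knockouts, without overlap, and 7 of 8 estimates were negative. Cidec was called lower (limma), edgeR and limma-voom each called 1 of the 8 lower, and DESeq2 2. Skeletal muscle markers summed to 8847 to 38852 in controls against 200957, 192502, 13274 and 117309 in knockout replicates 1 to 4. All 12 muscle markers had positive estimates, with a median log2 fold change of 2.05. None was called by limma, edgeR or limma-voom, with 8 higher at an unadjusted p under 0.05 (limma), and DESeq2 called 5 higher. Lymphocyte markers summed to 10098 to 20821 in controls and 16243 to 20261 in knockouts. All 11 tested had positive estimates and 0 were called (limma, edgeR, DESeq2 or limma-voom). Endothelial and mural markers summed to 16025 to 18221 in controls and 13183 to 15561 in knockouts, without overlap, and 0 of 8 were called (limma, 0 higher and 4 lower at an unadjusted p under 0.05, 0 by edgeR and limma-voom, 3 lower by DESeq2). The part of adipocytes and of endothelial and mural cells in the values below was not tested. That of muscle and lymphocytes was not tested beyond their marker scores as covariates. Knockout replicate 3 stood apart from the other knockouts in muscle, with those markers inside the control range. Control replicates 1 and 2 have title numbers (518 and 517) apart from those of the other 6 libraries (356 to 361), and what this reflects is not given in the sources used here.

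Of the 10 genes, Map1a, Mapt, Map2 and Map6 rose in the knockouts in the fit over all genes (limma on log2(value + 1), Benjamini-Hochberg adjusted p under 0.05), and none fell. Over all 14591 genes tested 1.64% were called in either direction, 1.28% as higher and 0.356% as lower. In these 4 genes every knockout library lay above every control, as in 5.06% of the genes tested, while 3.58% had every knockout below every control. The other 6 had overlapping groups. Since the genes were chosen with this contrast known, nothing is read from their count.

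**Figure D1:**
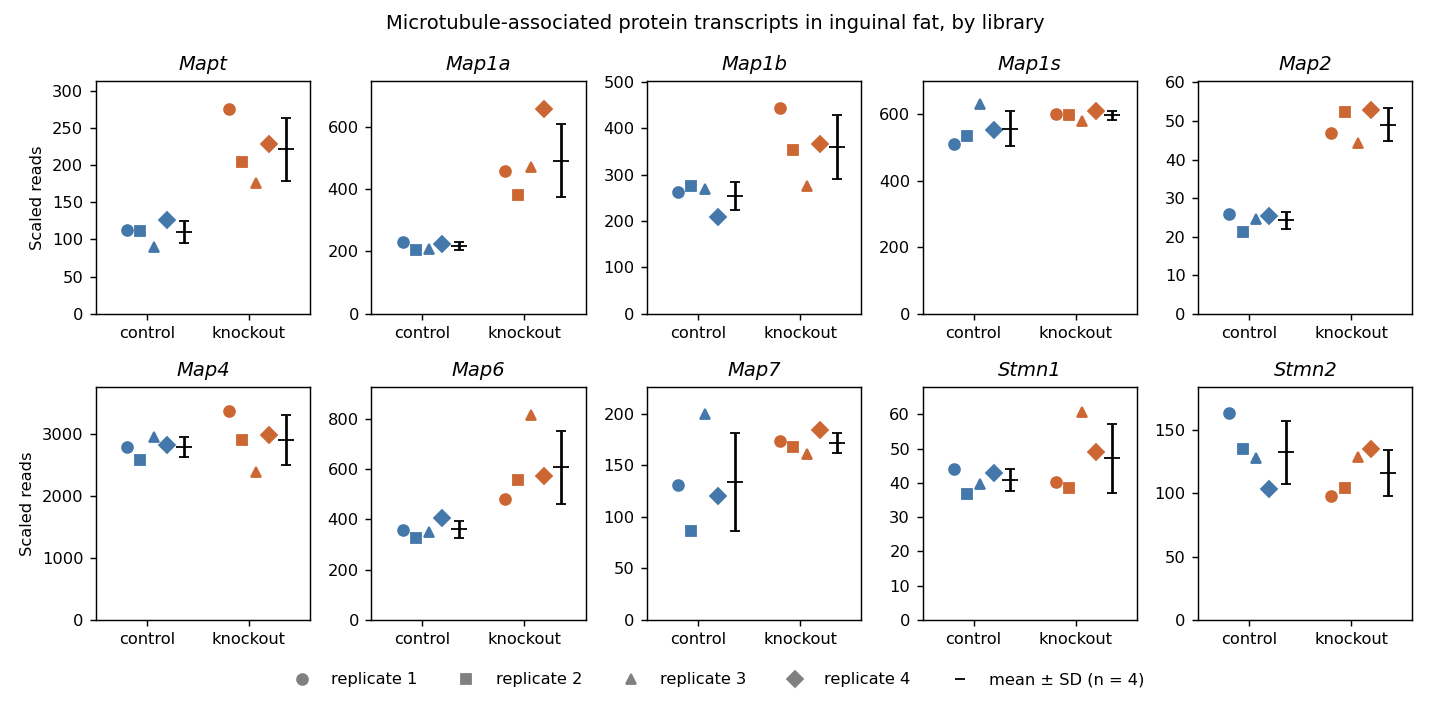
Scaled reads of each gene in the 4 control libraries (blue) and the 4 knockout libraries (orange), with each axis from 0, a marker shape for each replicate number (which names a library and pairs none), and the mean ± SD in black. In Map1a, Mapt, Map2 and Map6 the knockout points all lie above the control points, and in the other 6 genes the groups overlap.

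The MAP2 and tau family binds microtubules through related repeats in the C-terminal part of the protein. Tau, encoded by Mapt (NM_010838, chromosome 11 from 104229409 to 104332090, GRCm38.p6), spaces and stabilises axonal microtubules. Mapt was at 112, 111, 90.1 and 126 scaled reads in control replicates 1 to 4 and at 275, 204, 176 and 229 in knockout replicates 1 to 4. The lowest knockout, replicate 3, lay above the highest control. Mapt went from 109.9 ± 14.9 to 221 ± 42.05 (SD, n = 4 each), a log2 fold change of 0.99 (SE 0.16, 95% interval 0.63 to 1.35). It was no longer called without knockout replicate 2 (log2 fold change 1.03) or 4 (0.97), without control replicates 1 and 2 together (1.02), or with the muscle (0.89) or mammary (0.92) marker score as a covariate. Its exons overlap those of no other annotated gene.

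Map2 (NM_008632, chromosome 1 from 66175202 to 66442583) encodes the main MAP of dendrites. In controls it was the lowest of the 10 genes. It was at 25.9, 21.1, 24.5 and 25.3 scaled reads in controls and at 46.9, 52.2, 44.2 and 52.9 in knockouts. The groups were narrow and apart, at 24.2 ± 2.12 and 49.1 ± 4.2 (SD, n = 4 each). These values rest on 43 to 106 recovered reads a library. The log2 fold change was 0.99 (SE 0.16, 95% interval 0.63 to 1.36), as large as that of Mapt. The call was lost without knockout replicate 2 (0.96) or 4 (0.95), without control replicates 1 and 2 together (0.95), and with the muscle (0.94) or lymphocyte (0.94) score as a covariate. Of the exonic bases of Map2, 124 of 16449 are shared with Gm10558 on the opposite strand.

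Map4 (NM_008633, chromosome 9 from 109929841 to 110083954) is the family member of non-neuronal cells. It was the most abundant of the 10 genes, with 2789, 2584, 2957 and 2828 scaled reads in controls and 3366, 2909.8, 2384 and 2979 in knockouts. Knockouts held both the highest and the lowest value. The log2 fold change was 0.05 (SE 0.10, 95% interval -0.18 to 0.29) and it was not called. Its interval lies below those of Mapt and Map2, and whether the genes differ in response was not tested.

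MAP1 proteins are made as a precursor that is cut into a heavy and a light chain. Map1a (NM_032393, chromosome 2 from 121289590 to 121310832), whose protein is known from mature neurons, had the largest difference of the 10. It was at 231, 205, 209 and 223 scaled reads in controls and 457, 381, 472 and 657 in knockouts. The controls lay within a narrow band, and knockout replicate 4 was the highest. Map1a went from 217 ± 12.1 to 492 ± 117 (SD, n = 4 each), with a log2 fold change of 1.15 (SE 0.15, 95% interval 0.81 to 1.48). It stayed called when any 1 library was left out (1.0 to 1.26) and with each covariate (muscle 1.18, lymphocyte 1.16, mammary 1.31), and was not called without control replicates 1 and 2 together (1.16). Its exons share 272 of 12166 bases with Ppip5k1 on the opposite strand, where reads cannot be told apart without strand.

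Map1b (NM_008634, chromosome 13 from 99421464 to 99516602), the form of growing axons, was at 262, 276, 269 and 209 scaled reads in controls and 445, 353, 275 and 366 in knockouts. Knockout replicate 3 lay inside the control range and the other 3 knockouts above it. The log2 fold change was 0.49 (SE 0.15, 95% interval 0.15 to 0.83), and the gene was not called. Without knockout replicate 3 it was called (0.61), and with the muscle score as a covariate the estimate was 0.19. Muscle markers moved with this gene among the knockouts, and their part in it was not tested beyond that covariate.

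Map1s (NM_173013, chromosome 8 from 70905974 to 70917529), the short and widely expressed member, was at 509.6, 534, 631 and 554 scaled reads in controls and 601, 599, 579 and 610.1 in knockouts. The knockouts lay within the control range. The log2 fold change was 0.10 (SE 0.083, 95% interval -0.08 to 0.29), an interval that lies below that of Map1a.

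The 250 bases before the start in the RefSeq promoter table (GRCm38.p6, 6 of the 10 genes matched) are shown for the MAP1 genes and for Map2, among which are called and uncalled genes. Mapt, Map6, Stmn1 and Stmn2 had none. The windows are chr2:121289352-121289601 (plus strand) for Map1a, chr1:66175079-66175328 (plus) for Map2, chr13:99516603-99516852 (minus) for Map1b and chr8:70905724-70905973 (plus) for Map1s. The coordinates printed beside each RefSeq row are those of the gene, and where the transcript of the row starts was not looked up. The table's starts for Map2 and Map1a lie inside these gene spans. The end of the Map1a window and a large part of the Map2 window thus fall within the gene and may be transcribed. Each is written in the direction of its gene, and capitals mark matches on either strand to the GC box GGGCGG, the CCAAT box, the TATA box TATAAA, the E-box CANNTG and the left (AGCACC) and right (GGACAG) parts of the element bound by REST, a repressor of neuronal genes that recruits Lsd1. Neighbouring matches that overlap share their capitals.
Map1a: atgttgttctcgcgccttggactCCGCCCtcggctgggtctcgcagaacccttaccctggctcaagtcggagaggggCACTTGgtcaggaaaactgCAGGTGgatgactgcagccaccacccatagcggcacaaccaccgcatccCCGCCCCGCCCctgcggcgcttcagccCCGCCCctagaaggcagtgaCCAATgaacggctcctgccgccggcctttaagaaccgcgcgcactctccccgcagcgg
Map2: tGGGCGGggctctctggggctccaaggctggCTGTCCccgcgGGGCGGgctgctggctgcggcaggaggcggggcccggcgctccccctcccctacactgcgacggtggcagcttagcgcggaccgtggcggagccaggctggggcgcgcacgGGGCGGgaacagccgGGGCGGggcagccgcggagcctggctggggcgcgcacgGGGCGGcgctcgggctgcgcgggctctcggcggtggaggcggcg
Map1b: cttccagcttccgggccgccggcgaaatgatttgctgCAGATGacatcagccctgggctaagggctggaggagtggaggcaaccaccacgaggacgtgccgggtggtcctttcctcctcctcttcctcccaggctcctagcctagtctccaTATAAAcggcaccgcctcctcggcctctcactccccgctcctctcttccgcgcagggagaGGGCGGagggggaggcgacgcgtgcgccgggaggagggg
Map1s: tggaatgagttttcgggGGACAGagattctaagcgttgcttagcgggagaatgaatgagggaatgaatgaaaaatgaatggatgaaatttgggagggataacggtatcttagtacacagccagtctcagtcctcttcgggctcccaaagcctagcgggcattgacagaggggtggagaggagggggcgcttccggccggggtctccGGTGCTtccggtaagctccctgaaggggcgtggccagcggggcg

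GC boxes matched 4 times in the Map1a window, 5 times in that of Map2, 1 time in that of Map1b and 0 times in that of Map1s. Of the windows not shown, those of the uncalled Map4, which has 2 starts in the table, held 3 and 0, and that of the uncalled Map7 held 1. Of all 32851 windows of this length 32.7% hold at least 1. The Map1a window also held 1 CCAAT box (33.8% of all windows) and 2 E-boxes (66.2%). The Map1b window held the single TATA box among these 4 (12.4% of all windows) and 1 E-box. A right part of the REST element was found in Map2 and Map1s (18.7% of all windows) and a left part in Map1s (13.4%). Map1s, which was not called, held both and Map1a neither, and whether REST binds at these windows was not tested. The Map2 window had 34 CpG dinucleotides and that of Map1a 21, Map1b 19 and Map1s 14, against 36 and 4 in those of Map4, 47 in that of Map7 and a median of 6 over all windows. The CpG counts of called and uncalled genes overlapped. GC box counts were 4 and 5 in the called genes and 0 to 3 in the uncalled ones, over 6 genes and with no test. Most of the 5 matches in the Map2 window lie past the start of its gene span, so these counts are not of upstream sequence alone. No difference between called and uncalled genes is read from them. These matches describe letters in a window and not sites.

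Map6 (NM_010837, chromosome 7 from 99266779 to 99337137) encodes the stable tubule only polypeptide, which protects microtubules from cold and drugs. It was at 359, 326, 349.6 and 406 scaled reads in controls and 482, 557, 817 and 573 in knockouts. All knockouts lay above all controls, and knockout replicate 3 was the highest by far. Map6 went from 360.1 ± 33.6 to 607 ± 146 (SD, n = 4 each), with a log2 fold change of 0.73 (SE 0.15, 95% interval 0.39 to 1.07). The call was lost in 14 of 22 alternatives, among them TMM and median-of-ratios scaling (0.71 in both), edgeR on recovered reads (0.74) and leaving out any control or knockout replicate 2 or 4 (0.68 to 0.79), and it held without knockout replicate 3 (0.58) or 1 (0.83). With the muscle score as a covariate the estimate was 1.05.

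Map7 (NM_008635, chromosome 10 from 20148920 to 20281590), also called ensconsin, recruits kinesin-1 to microtubules and is known from epithelia. It was at 131, 86.0, 199.8 and 120.2 scaled reads in controls and 174, 168, 161 and 184 in knockouts. The controls were widely spread, and control replicate 3 lay above all knockouts. The log2 fold change was 0.42 (SE 0.22, 95% interval -0.07 to 0.90), and it was 0.63 without control replicate 3 and 0.23 without control replicate 2. Mammary epithelium markers summed to 124 to 164 in controls and to 632, 301, 138 and 138 in knockout replicates 1 to 4. Map7 also fell from knockout replicate 1 to 3, but it was highest in replicate 4. The part of epithelium in Map7 was not tested beyond the mammary score as a covariate (0.43). Of the exonic bases of Map7, 332 of 7935 are shared with Gm48249 on the opposite strand.

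Stathmins bind tubulin dimers, and neither of the 2 measured here was called. Stmn1 (NM_019641, chromosome 4 from 134468320 to 134473843), abundant in dividing cells, was at 43.9, 36.9, 39.7 and 42.8 scaled reads in controls and 40.4, 38.6, 60.6 and 48.9 in knockouts. Knockout replicates 1 and 2 lay inside the control range, and replicate 3 was the highest. The log2 fold change was 0.18 (SE 0.18, 95% interval -0.23 to 0.59), from 71 to 137 recovered reads a library. Cell cycle markers summed to 1933 to 2920 in controls and 2241 to 2660 in knockouts, and of the 12 tested none was called (limma, with 1 higher and 0 lower at an unadjusted p under 0.05, and 0 by edgeR, DESeq2 or limma-voom).

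Stmn2 (NM_025285, chromosome 3 from 8509527 to 8561604), known as SCG10 of neuronal growth cones, was at 164, 135, 128 and 104 scaled reads in controls and 97.6, 104, 129 and 135 in knockouts. It was the only 1 of the 10 with a negative estimate. The groups overlapped over most of their range, with a log2 fold change of -0.18 (SE 0.17, 95% interval -0.56 to 0.20). Without control replicates 1 and 2 together the estimate was 0.00. The intervals of both stathmins lie below those of Mapt, Map1a and Map2, a comparison that was not tested.

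**Figure D2:**
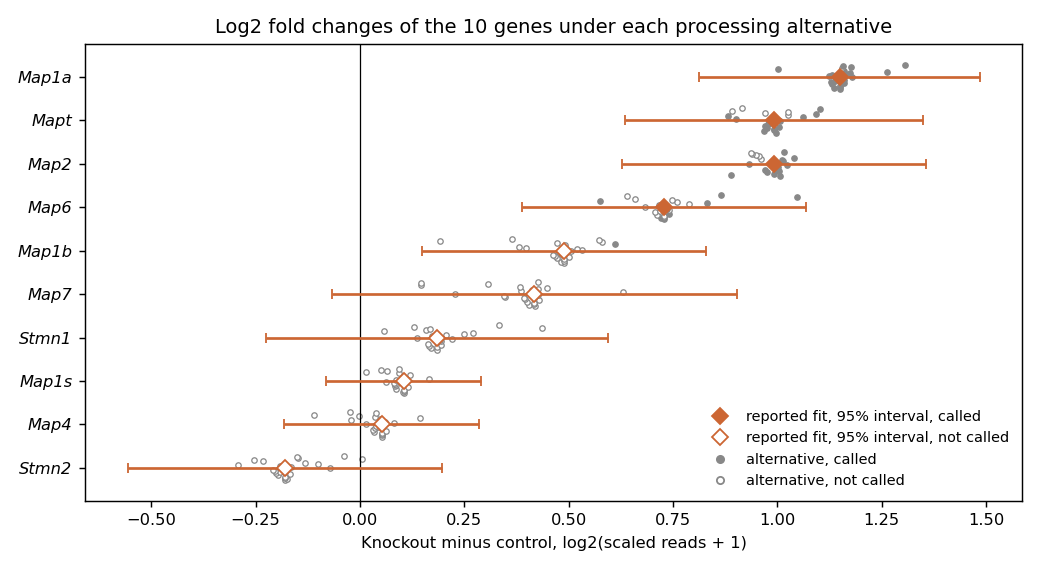
Log2 fold change, knockout minus control on the log2(scaled reads + 1) scale, for each gene in the reported fit (orange diamond with 95% interval) and in the 21 or 22 processing alternatives (grey circles), filled where the gene was called. Map1a, Mapt, Map2 and Map6 lie at 0.73 to 1.15, and Stmn2 is the lowest at -0.18.

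Per kilobase of transcript, the level in controls ran from Map4 at 501 ± 27.7 scaled reads per kb to Map2 at 4.45 ± 0.389 (SD, n = 4). Between them came Map1s (168 ± 15.8), Map6 (105 ± 9.79), Stmn2 (64 ± 12), Stmn1 (38.5 ± 3.02), Map7 (31.6 ± 11.2), Map1b (21.5 ± 2.59), Mapt (20.9 ± 2.84) and Map1a (18.4 ± 1.02). Map4, Map1s, Map6 and Stmn2 were apart from each other and from the rest, and Map2 lay below all others. Neighbours from Stmn1 to Map1a overlapped in range and do not differ beyond their spread. Map6 and Stmn2 thus stood above most of the group in control fat, although their proteins are best known from neurons. In the knockouts Mapt (42.1 ± 8) and Map1a (41.6 ± 9.89) were at the level of Stmn1 (44.5 ± 9.47) and Map7 (40.4 ± 2.31), and Map6 reached 177 ± 42.5 beside Map1s at 180 ± 3.95. Lengths are those of the transcript matched to each RefSeq row, so a gene transcribed in another isoform has another value.

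**Figure D3:**
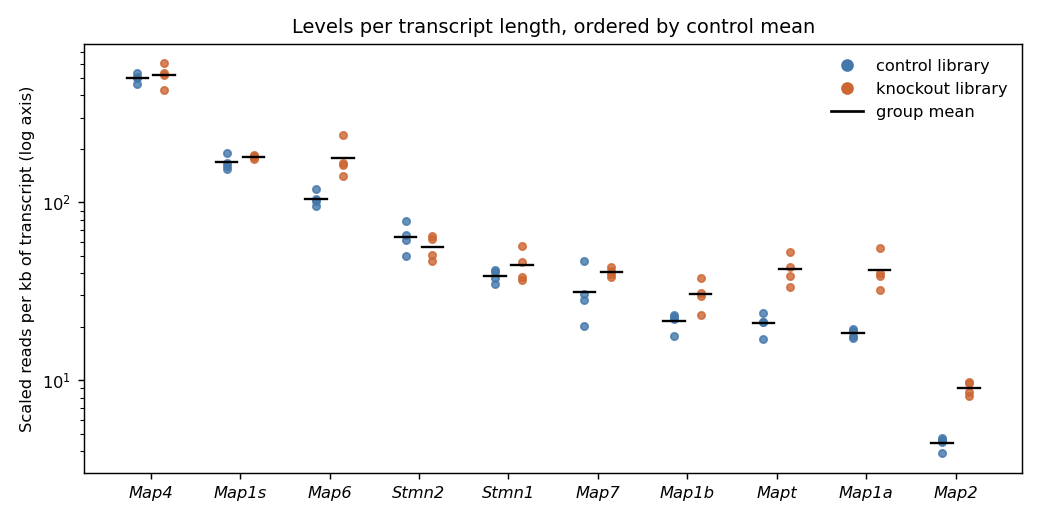
Scaled reads per kilobase of transcript on a log axis for the 10 genes in order of the control mean, with control libraries in blue, knockout libraries in orange and group means as black bars. Map4 lies at about 501 in controls and Map2 at 4.45, and in knockouts Mapt and Map1a reach the level of Stmn1 and Map7.

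Among libraries of 1 genotype the 10 genes did not move as a group. After the genotype means were subtracted, the Pearson correlation over the 8 libraries was -0.95 between Map1b and Map6 and 0.88 between Map6 and Stmn1, the largest negative and positive of 45 pairs, chosen after the values were seen. Between Mapt and Map1a it was 0.22, between Mapt and Map2 0.16 and between Map1a and Map2 0.29. All points share the library and its tissue makeup. In knockout replicate 3, the library with few muscle transcripts among the knockouts, Map1b was the lowest and Map6 and Stmn1 the highest of the 4. Over the controls the muscle score was lowest in replicate 4, where Map1b was lowest (209) and Map6 highest (406).

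**Figure D4:**
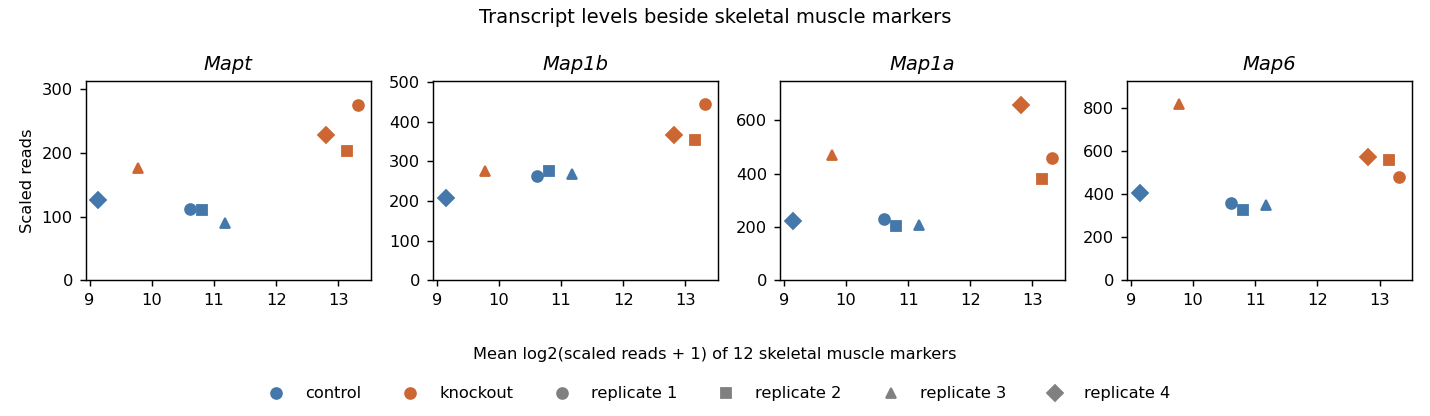
Scaled reads of Mapt, Map1b, Map1a and Map6 against the mean log2(scaled reads + 1) of 12 skeletal muscle markers, 1 point a library, control in blue and knockout in orange. Knockout replicate 3, the orange triangle, has a muscle score of 9.77 inside the control range, and there Mapt, Map1a and Map6 lie above all controls while Map1b (275) does not.

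The genes whose deviations within genotypes were most like those of Map1a over the 8 libraries were Smim10l2a (Pearson r 0.97), Tmem119 (0.95), Cc2d1a (0.95), Nt5dc2 (0.95) and Ninj1 (0.94). Their own log2 fold changes were -0.05 to 0.32, against 1.15 for Map1a. For Stmn1 they were Tpd52l2 (0.98), Orc2 (0.98), Alg5 (0.97), Bik (0.97) and Yipf1 (0.97). These are the highest correlations over all 14591 tested genes, and all of them share the same 8 libraries.

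Markers of neurons and axons were low in the pad, while those of Schwann cells were not. Of 13 markers of sympathetic neurons and axons 3 passed the filter of at least 10 scaled reads in at least 4 libraries. All 3 had positive estimates, from 0.28 to 0.72 with a median of 0.48, and 1 of the 3 was called (limma). Over all genes tested 54.6% had positive estimates. Th, the first enzyme of noradrenaline synthesis, was at 0 to 5.45 scaled reads, Dbh, which makes noradrenaline, at 0 to 1.03, and the neurofilament gene Nefl at 0 to 3.27 over all 8 libraries. Dbh and Npy were listed at 0 in all 4 knockouts. The list summed to 194 to 232 scaled reads in controls and 257 to 312 in knockouts. Uchl1, a ubiquitin hydrolase abundant in neurons, made up much of that difference, at 83.5, 92.4, 73.9 and 75.8 in controls and 158, 132, 111 and 139 in knockouts, and it rose (log2 fold change 0.72, SE 0.14, limma adjusted p = 0.0414, higher in 4 of 4 knockouts than in any control), a call that DESeq2 shared and edgeR and limma-voom did not. Without Uchl1, left out after its values were seen, the sums were 117, 136, 158 and 118 in controls and 154, 164, 147 and 127 in knockouts, which overlap. Schwann cell markers summed to 9338 to 12406 in controls and 10603 to 11297 in knockouts, and 0 of 9 were called (limma, 0 at an unadjusted p under 0.05, and 0 by edgeR, DESeq2 or limma-voom). Th, Dbh and Nefl were thus at or near 0 in both groups, unlike the 3 markers that passed the filter. Whether transcripts of any of these markers follow the amount of nerve in the pad was not tested. The part of Uchl1-bearing cells or Schwann cells in the MAP values was not tested either.

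The rest of the microtubule system was taken from 11 lists by function, 172 genes, of which 164 were measured and 153 tested. Of these 2 were higher and 0 lower (limma adjusted p under 0.05), 1.31% against 1.64% of all genes tested. At an unadjusted p under 0.05 there were 15 higher and 5 lower, edgeR and limma-voom each called the same numbers as limma, and DESeq2 called 3 higher and 1 lower, the dynactin subunit Dctn5. The median log2 fold change over these genes was 0.04, against 0.02 over all genes. Over the 10 genes above it was 0.45, a value that their choice with this contrast known can set.

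The 2 that rose were both tubulins. Tubg2, a gamma tubulin of the complex that nucleates microtubules, was at 17.1, 16.2, 18.1 and 22.7 scaled reads in controls and 53.4, 34.8, 56.2 and 37.9 in knockouts (log2 fold change 1.24, SE 0.22, limma adjusted p = 0.0243, higher in 4 of 4). Its abundant paralogue Tubg1 was at 475 ± 55 and 516 ± 68.1 (0.12, SE 0.12) and was not called, and reads of such paralogues may be split in mapping. The call of Tubg2 was lost in 8 of 21 alternatives, and 5 of these leave out a single library (control 1, 2 or 3, knockout 1 or 4), with an adjusted p up to 0.189 over all alternatives. Tuba4a, an alpha tubulin, was at 908, 699.8, 1009.6 and 822 in controls and 1232, 1456, 1204 and 1201 in knockouts (0.57, SE 0.12, adjusted p = 0.0463, higher in 4 of 4). The call was lost in 11 of 22 alternatives, among them the muscle score as a covariate (0.50, adjusted p = 0.126), 6 of the 8 fits without a single library (all but control 3 and knockout 3) and no filter (0.0575), with an adjusted p up to 0.212 over all alternatives. Of its exonic bases 1379 of 3701 are shared with Stk16 on the opposite strand.

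All 11 tested alpha and beta tubulins had positive estimates, with a median of 0.32, and 1 of 11 was called, while 54.6% of all genes tested had positive estimates. The 13 measured tubulins summed to 15699.9, 15374.5, 17029 and 15207 scaled reads in control replicates 1 to 4 and to 14659, 20079, 25368 and 17681 in knockout replicates 1 to 4. Knockout replicate 1 thus lay below all controls, and replicate 3, which stood apart in muscle markers, was the highest. The most abundant per length were Tubb5 (1744 scaled reads per kb in controls, log2 fold change 0.17, SE 0.11) and Tuba1b (1712 per kb, 0.19, SE 0.25), neither of which was called. Tuba8, known from muscle and testis, had the largest estimate (0.86, SE 0.26), was not called, and was called by DESeq2 (0.82). Tubb3, the neuronal beta tubulin, was at 5 ± 2.2 and 9.17 ± 3.93 scaled reads and did not pass the filter. The alpha tubulins are near-identical in sequence, so reads may be divided among them.

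Relatives of the 10 genes held no call among 17 tested (limma, with 5 higher and 1 lower at an unadjusted p under 0.05, and 0 by edgeR, DESeq2 and limma-voom), with a median of 0.18. The most abundant were Map1lc3a (1859 scaled reads per kb in controls, 0.44, SE 0.18) and Map1lc3b (1031 per kb, -0.16, SE 0.11), autophagosome proteins first found as light chains of MAP1. The farthest from 0 was Mtus2 (-1.72, SE 0.53), at 11.8 to 23.2 scaled reads in controls and 1.09 to 9.82 in knockouts, which was not called (adjusted p = 0.166). Of the stathmin paralogues, Stmn4 was at 73.4 ± 23.5 and 102.6 ± 10.6 and was not called, and Stmn3 was at 0.55 to 4.64 in all libraries, below the filter.

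No gene was called in 8 further lists (limma, with 0 to 2 higher and 0 to 2 lower in each at an unadjusted p under 0.05, 0 by edgeR and limma-voom, and Dctn5 by DESeq2), and their medians lay between -0.07 and 0.15. These were plus-end proteins (12 tested), severing and depolymerising enzymes (12), tubulin modifying enzymes (15), tubulin folding cofactors (6), kinases and phosphatases of tau and other MAPs (16), transport kinesins (18), dynein and dynactin (21) and spindle proteins (14). Examples of their abundant members are Mapre1, which tracks growing ends (-0.03, SE 0.075), Katna1, the katanin that severs microtubules (-0.10, SE 0.099), Sirt2, a tubulin deacetylase (-0.02, SE 0.072), Gsk3a, a kinase of tau (-0.04, SE 0.065), Kif1c, a transport kinesin (-0.12, SE 0.087), Dctn2 of dynactin (-0.02, SE 0.084) and Numa1 of the spindle pole (0.01, SE 0.098). The largest estimates were Agbl2, a tubulin carboxypeptidase (1.34, SE 0.38, adjusted p = 0.135), Dynlt1b a dynein light chain (0.72, SE 0.38), and Katnal2, a katanin relative (-0.76, SE 0.39), none of them called, while Clip3 (0.46), Kif23 (0.33), Cdk5r1, the p35 activator of the tau kinase CDK5 (0.30), Kif3c (0.30) and Tbcb (0.21) were the farthest from 0 in theirs. Other abundant genes were within 0.3 of 0, namely Mapre2 (0.10), Tubgcp3 (-0.07), Spast (-0.04), Svbp (0.27), Tbca (-0.05), Mark2 (-0.04), Klc1 (0.12), Dynll2 (-0.17) and Kif20a (0.08).

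**Figure D5:**
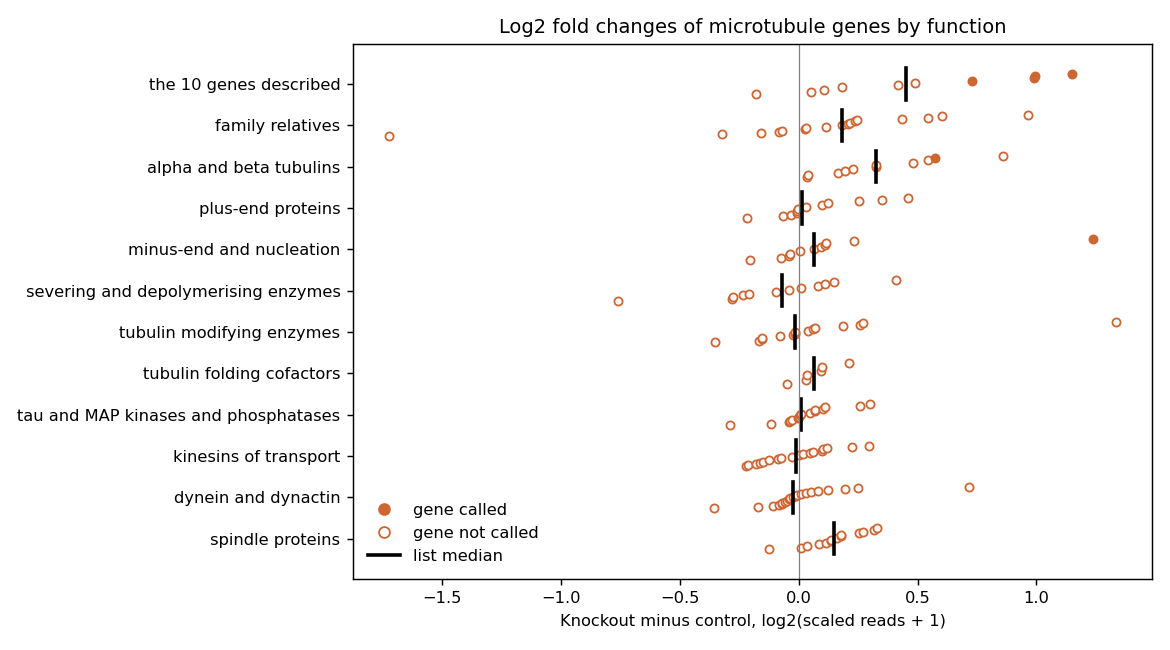
Log2 fold change, knockout minus control on the log2(scaled reads + 1) scale, of each tested gene in the 10 genes described and in 11 lists by function, filled where the gene was called, with the list median as a black bar. The 10 genes, chosen with this contrast known, have a median of 0.45, alpha and beta tubulins 0.32, and the other lists lie between -0.07 and 0.18.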

How the data were processed

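RNA of inguinal fat was sequenced in 4 control and 4 knockout libraries. The submitters' processing notes and the design text name TopHat version 2, mm10, HOMER for counting, edgeR and DESeq version 1.8.3. Strand, annotation and scaling factor: not given in the sources used here. The values the authors deposited are a signal, read counts multiplied by 1 factor per library: low values were whole multiples of 1 step within 0.02 in 100% of cases, which recovered the reads. Rows were named from RefSeq (GRCm38.p6) and GENCODE M21, and 721 matched neither.

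limma (3.58.1) with a mean-variance trend was fitted on log2(value + 1), genotype as the only term, for 14591 genes (10 or more in 4 or more libraries), calling an adjusted p under 0.05. Folds on this scale understate low genes. The 10 genes, the lists and the rules were chosen with earlier results of these data known. Named were the 10 genes, Kdm1a, called genes of the function lists, the 2 most abundant per kilobase and the 1 farthest from 0 in each, and the 5 genes most like Map1a and Stmn1. Dctn5, Tubb3, Stmn3, Stmn4 and the nerve markers were named after their values were seen. Alternatives were pseudocounts of 0.5 and 5, filters (none, 50), 3 scalings, limma-voom, edgeR (4.0.16) and DESeq2 (1.42.0) on recovered reads, left-out libraries and marker scores as covariates.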

Additional observations from a re-analysis of the deposited data

Results flagged for a closer look

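Of 24 groups of 4 libraries checked, for the 10 genes and the 2 called tubulins, 1 held a library far from the other 3. Tuba4a in knockout replicate 2 was at 1455.7 scaled reads, against 1201, 1204 and 1232 in the other knockouts. Chance flags about 1 in 20 groups.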

How the results depend on the processing

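No paired analysis was run, because the number in the sample title differs for every library and the labels name no pairs. The number of the 10 genes called was 4 in the reported fit and 1 to 5 when 1 library was left out, 1 without knockout replicate 2 or 4. It was 2 with a filter at 50, which removed Map2 and Stmn1 from the test, 2 with the muscle or the lymphocyte covariate, and 0 without control replicates 1 and 2 together (limma, 5 at an unadjusted p under 0.05), a fit with 6 libraries. The log2 fold changes of Mapt (0.88 to 1.10), Map1a (1.0 to 1.31), Map2 (0.89 to 1.04) and Map6 (0.58 to 1.05) kept their sign in every alternative. Of the other microtubule genes 2 were called, against 0 to 2 when 1 library was left out, 4 with DESeq2, 1 without a filter, with a filter at 50 or with the muscle covariate, and 0 with the lymphocyte or mammary covariate or without control replicates 1 and 2 together (14, 22 and 9 at an unadjusted p under 0.05). Over all genes 239 were called, against 71 to 429 when 1 library was left out, 776 with DESeq2 (492 higher, 284 lower), 112 with the lymphocyte covariate and 98 without control replicates 1 and 2 together. The cause of these changes was not tested. Fits with a library left out hold fewer libraries, yet without knockout replicate 3 the calls over all genes rose from 239 to 429. Map2 and Stmn1 rest on few reads, 43 to 137 recovered reads a library, and the part of depth in their estimates was not tested.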
